A study of Mus musculus with 6 samples.

Results

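Kinesins are motor proteins that use ATP to move along microtubules or to take microtubules apart at their ends. The kinesin genes were taken as every protein-coding gene of the count table whose symbol is Kif followed by a number and at most a letter, or Kifc followed by a digit, which gave 41 genes among the 40166 genes of the table. Of these, 11 were grouped as mitotic kinesins (Kif4, Kif14, Kif15, Kif18a, Kif18b, Kif20a, Kif20b, Kif22, Kif23, Kif2c and Kifc1). A further 17 were grouped as transport kinesins (Kif1a, Kif1b, Kif1c, Kif3a, Kif3b, Kif3c, Kif5a, Kif5b, Kif5c, Kif13a, Kif13b, Kif16b, Kif17, Kif21a, Kif21b, Kifc2 and Kifc3). The other 13 were Kif2a, Kif2b, Kif6, Kif7, Kif9, Kif11, Kif12, Kif19a, Kif24, Kif26a, Kif26b, Kif27 and Kif28.

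A dividing cell needs mitotic kinesins to build the spindle, to bring the chromosomes to its middle and to cut the daughter cells apart, and many of them are made only in the later part of the cell cycle. Transport kinesins carry vesicles, organelles and protein complexes through the cytoplasm of dividing and resting cells alike, and some of them also work along the axons of neurons or inside the cilium. Kinesins of cell division are targets of experimental cancer drugs, because cells that cannot assemble or resolve a spindle do not multiply.

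The comparison asks how kinesin transcripts differ between tumors of mice given Rigosertib (RGS), an anticancer compound, and tumors of mice given vehicle. Bulk RNA was sequenced from 6 tumors of YUMM3.3, a Braf-mutant mouse melanoma line injected under the skin of the lower back of C57BL/6 mice, so each sample mixes tumor cells with the other cells of the tumor. The 3 RGS mice received 300 mg/kg by gavage in 100 µl, 5 days a week, and the 3 vehicle mice received water on the same schedule, with all tumors collected after 17 days of treatment. The table held 32555494, 26652104 and 22793087 counts for vehicle tumors 7, 8 and 9, and 21617368, 13837932 and 17768758 counts for RGS tumors 10, 11 and 12, so the smallest vehicle library held more counts than the largest RGS library.

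Levels are given in CPM, the usual counts-per-million unit, with each library's total scaled by TMM factors, which align the libraries on the bulk of their genes. A gene was tested if its median count was at least 5 in at least 1 group, which 15355 genes passed. Changes are log2 fold changes of RGS over vehicle with their standard error (SE), from the quasi-likelihood F test of edgeR, with p adjusted over all tested genes by the method of Benjamini and Hochberg. A gene is called lower or higher where this adjusted p is under 0.05, and means are given with the SD over n = 3 tumors. Gene identifiers and positions (mouse build mm10) are those of the count table.

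Of the 41 kinesin genes, 35 were tested, and of these 12 were lower in RGS tumors, 5 were higher and 18 were not called. Among all tested genes, 16.5% were lower and 16.3% were higher. Most of the lower calls were mitotic kinesins: 10 of the 11 were lower, and all 11 had a negative log2 fold change. Their median log2 fold change was −1.52, with a range of −2.65 to −0.59. Of the 17 transport kinesins, 1 was lower, 5 were higher and 11 were not called, with a median of 0.48, while the median over all tested genes was −0.05. The higher transport kinesins were 2 without RGS tumor 12 and 3 without RGS tumor 10, and the lower one was lost without vehicle tumor 7, vehicle tumor 8, RGS tumor 11 or RGS tumor 12. Kif1a, among the higher genes, passed the count filter only through the RGS group. Under a filter of at least 1 CPM in 3 tumors, which 15 of the 17 passed and Kif1a did not, 4 were higher and the transport median was 0.30. All 3 RGS tumors lay below all 3 vehicle tumors in 10 of 11 mitotic kinesins and in 24.0% of all tested genes. They lay above all vehicle tumors in 5 of 17 transport kinesins (Kif1c, Kif3a, Kif3b, Kif3c and Kif17) and in 21.7% of all tested genes. In bulk tumors, fewer cells of a type and less RNA per cell cannot be told apart.

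**Figure D1:**
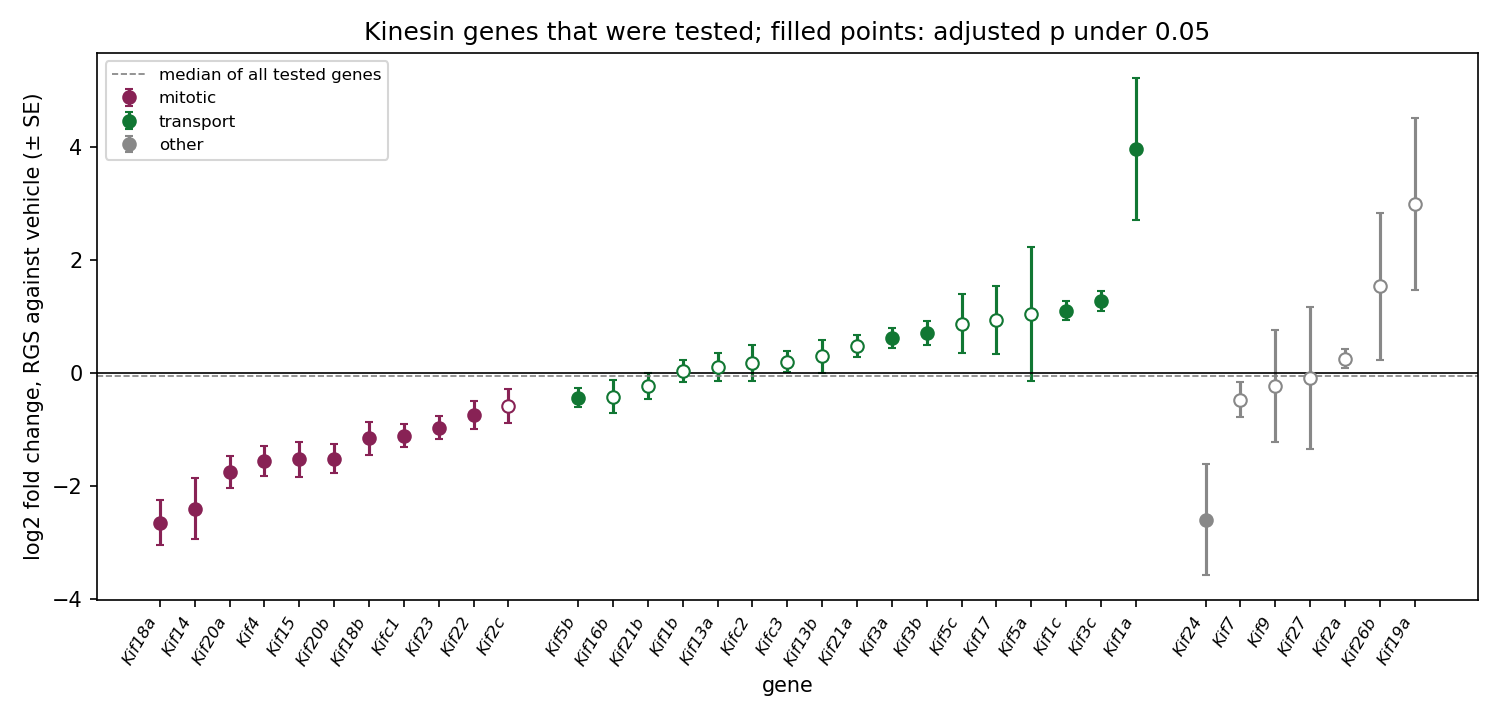
Log2 fold change of RGS over vehicle for the 35 tested kinesins, with SE bars, grouped as mitotic, transport and other; filled points have an adjusted p under 0.05 and the dashed line marks the median of all tested genes. The 11 mitotic kinesins lie between −2.65 and −0.59, and the genes above 1 are Kif1a, Kif1c and Kif3c, which were called, and Kif5a, Kif19a and Kif26b, which were not.

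With the fall of the mitotic kinesins known, the promoters of the kinesins were read from RefSeq for the mouse build GRCm38.p6. The windows of 300 bases run from 250 bases before the start of the transcript to 50 bases from it. Of the 41 kinesins, 32 had an entry, among them 10 of the 11 mitotic ones, and no entry was found for Kif20a, Kif5b, Kif21b, Kifc2, Kifc3, Kif13b, Kif5a, Kif19a and Kif28. The letters TTTGAA, searched on both strands so that TTCAAA counts too, are the core of the cell cycle genes homology region (CHR), an element known from promoters of genes transcribed late in the cell cycle. They occurred in 9 of the 10 mitotic promoters, all but that of Kif18a, against 17.9% of the 32851 mouse promoters. The RefSeq starts used for Kif14 (around chr1:136467728-136467877) and Kif2c (around chr4:117178743-117178892) lie well inside the gene, away from its listed 5′ end. The 13 promoters of transport kinesins, which belong to 11 genes, held the letters in 1 case, Kif1a. That match lay at a start inside the gene (around chr1:93082451-93082600), and the promoter at the listed 5′ end of Kif1a held none. The start used for Kif17 (around chr4:138262131-138262280), whose window held none, lies inside the gene as well. The 13 promoters of other kinesins, also of 11 genes, held the letters in 3 cases, Kif11, Kif26b and Kif27. The start used for Kif27 (around chr13:58354918-58355067) also lies inside the gene. From 50 bases before the start to 30 bases after it, a stretch chosen after the sites were seen, 7 of the 10 mitotic promoters had a match (Kif4, Kif15, Kif18b, Kif20b, Kif22, Kif23 and Kifc1) and 4.29% of all promoters did. In the same stretch, 1 of 13 transport promoters (that of Kif1a inside the gene) and 2 of 13 other promoters (Kif11 and Kif26b) had a match.

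The following stretches of 150 bases begin 120 bases before the RefSeq start, run 5′ to 3′ on the strand of the gene and have TTTGAA or TTCAAA in capitals. They are shown because 5 of these mitotic kinesins carry the letters close to the start, while Kif18a and Kif1c do not. Kif18a was the mitotic kinesin with the largest change with all tumors, though Kif14 changed more without RGS tumor 12. Kif1c was a transport kinesin that was higher. Counted from 1 at the start, the letters begin at base 2 in Kifc1, base 3 in Kif23, base 4 in Kif18b, bases 8 and 14 in Kif20b and base 20 in Kif4. Kif4 was read at chrX:100625945-100626094 (plus strand), Kif23 at chr9:61946770-61946919 (minus strand) and Kif18b at chr11:102925095-102925244 (minus strand). Kif20b was read at chr19:34922238-34922387 (plus strand), Kifc1 at chr17:33890604-33890753 (minus strand), Kif18a at chr2:109280618-109280767 (plus strand) and Kif1c at chr11:70700428-70700577 (plus strand).
Kif4: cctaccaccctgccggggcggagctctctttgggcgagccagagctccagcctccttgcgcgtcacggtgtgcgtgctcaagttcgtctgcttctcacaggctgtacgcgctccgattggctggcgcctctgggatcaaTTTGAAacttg
Kif23: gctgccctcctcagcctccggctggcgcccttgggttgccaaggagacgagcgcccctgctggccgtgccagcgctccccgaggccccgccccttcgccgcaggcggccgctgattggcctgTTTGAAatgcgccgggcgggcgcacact
Kif18b: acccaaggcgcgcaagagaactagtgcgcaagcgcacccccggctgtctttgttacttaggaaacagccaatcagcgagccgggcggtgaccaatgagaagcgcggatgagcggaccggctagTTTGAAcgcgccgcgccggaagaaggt
Kif20b: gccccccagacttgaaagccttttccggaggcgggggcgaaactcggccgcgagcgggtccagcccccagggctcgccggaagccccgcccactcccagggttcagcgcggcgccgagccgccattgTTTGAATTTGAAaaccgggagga
Kifc1: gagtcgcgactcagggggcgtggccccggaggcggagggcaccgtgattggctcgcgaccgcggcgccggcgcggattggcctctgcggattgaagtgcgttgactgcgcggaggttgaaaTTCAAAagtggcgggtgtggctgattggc
Kif18a: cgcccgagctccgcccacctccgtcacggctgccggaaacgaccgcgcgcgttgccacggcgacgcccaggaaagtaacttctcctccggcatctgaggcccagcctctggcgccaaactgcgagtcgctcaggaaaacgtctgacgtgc
Kif1c: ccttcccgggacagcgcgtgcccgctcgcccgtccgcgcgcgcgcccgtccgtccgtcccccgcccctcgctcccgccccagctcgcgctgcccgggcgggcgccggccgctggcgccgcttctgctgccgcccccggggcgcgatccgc

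Other letters were searched in the same windows of 300 bases, on both strands. CCAAT, the core of a common promoter box, was in 6 of 10 mitotic promoters, 4 of 13 transport promoters (2 of them of Kif1b), 6 of 13 promoters of other kinesins and 37.4% of all promoters. TTGGCGC, a form of the site known for E2F factors, was in 2 of 10 mitotic promoters, those of Kif15 and Kif18a, and in 2.45% of all. The related forms TTCGCGC (1.59% of all promoters) and GCGGGAA (4.60%, the same matches as its reverse complement TTCCCGC) were in 0 of 10 mitotic promoters. Of the variants of the CHR core, TTTAAA was in 2 of 10 mitotic promoters and 13.2% of all, and TTCGAA and CTTAAA were in 0 of 10, with 1.56% and 13.5% of all. These matches describe letters in a window and no binding was measured. Their part in the kinesin values was not tested.

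Kinesins that act on chromosomes and on the microtubule ends attached to them come first. Kif18a (ENSMUSG00000027115.14, chr2:109280738-109341747), which walks to the plus ends of kinetochore microtubules and damps the swinging of chromosomes, had 12.9, 16.6 and 16.3 CPM in vehicle tumors 7, 8 and 9 and 2.23, 3.84 and 1.28 CPM in RGS tumors 10, 11 and 12. The highest RGS tumor was far below the lowest vehicle tumor, and RGS tumor 12 was the lowest. Its mean fell from 15.3 ± 2.08 to 2.45 ± 1.29 CPM (SD, n = 3), a log2 fold change of −2.65 (SE 0.40, edgeR adjusted p = 5.09e-05), in the mitotic gene whose promoter window lacked TTTGAA. This was the largest fall of the tested kinesins with all tumors, close to that of Kif24 (−2.60, SE 0.98). Kif24 fell more with limma voom (−3.61 against −2.79) and without vehicle tumor 8, vehicle tumor 9 or RGS tumor 12. Kif14 also fell more without RGS tumor 12 (−3.18 against −2.38). Kif4 (ENSMUSG00000034311.3, chrX:100625737-100727214), a motor that binds chromosome arms and later sets the length of the central spindle, had 26.7, 20.3 and 21.8 CPM in the vehicle tumors and 7.01, 6.55 and 9.67 CPM in the RGS tumors, in the same order. The groups did not overlap, and Kif4 changed by −1.57 (SE 0.27, adjusted p = 0.000194). In the mouse annotation, 15.1% of the exon bases of Kif4 are shared with Pdzd11 on the opposite strand, a neighbor examined after its values were seen, which was not called (−0.42).

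Kif22 (ENSMUSG00000030677.8, chr7:127027729-127042471), which pushes chromosome arms away from the spindle poles, had 36.0, 26.5 and 28.3 CPM in the vehicle tumors and 14.2, 14.8 and 25.0 CPM in the RGS tumors. RGS tumor 12 came close to vehicle tumor 8, while the other RGS tumors stayed well below. Kif22 was lower by a log2 fold change of −0.75 (SE 0.25, adjusted p = 0.0268), and the call was lost without vehicle tumor 7 (adjusted p = 0.0849), RGS tumor 10 (0.116) or RGS tumor 11 (0.0907), with 0.00362 to 0.116 as the range over all alternatives. Kif2c (ENSMUSG00000028678.13, chr4:117159639-117182639), which removes tubulin from microtubule ends at centromeres and so corrects faulty attachments, was the mitotic kinesin without a call. Its levels were 25.1, 15.0 and 22.8 CPM in the vehicle tumors and 13.1, 20.6 and 8.32 CPM in the RGS tumors. The groups overlapped, since RGS tumor 11 lay above vehicle tumor 8, and the log2 fold change of Kif2c was −0.59 (SE 0.31, adjusted p = 0.153). Without RGS tumor 11, Kif2c was called, at −0.98 (adjusted p = 0.0230, within a range of 0.0230 to 0.407 over all alternatives). Kif18b (ENSMUSG00000051378.10, chr11:102905529-102925124), which works with Kif2c at the plus ends of astral microtubules, had 23.9, 13.5 and 21.6 CPM in the vehicle tumors and 9.09, 6.93 and 10.3 CPM in the RGS tumors. Vehicle tumor 8 was low for Kif18b as it was for Kif2c, yet no RGS tumor reached it, and Kif18b was lower by −1.16 (SE 0.29, adjusted p = 0.00473).

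Kinesins that build the spindle form the next group. Kif15 (ENSMUSG00000036768.6, chr9:122951046-123018733), a plus-end motor that helps to keep the spindle poles apart, had 17.5, 18.7 and 15.6 CPM in the vehicle tumors and 6.06, 7.99 and 3.85 CPM in the RGS tumors. The vehicle tumors were close to each other and all RGS tumors were lower, with a log2 fold change of −1.53 (SE 0.32, adjusted p = 0.000997). Kifc1 (ENSMUSG00000079553.10, chr17:33875666-33890661), a minus-end motor that focuses spindle poles and gathers extra centrosomes, had 73.8, 69.2 and 65.0 CPM in the vehicle tumors and 23.4, 43.1 and 30.2 CPM in the RGS tumors. RGS tumor 11 kept the most Kifc1 of its group and still lay below every vehicle tumor. Kifc1 was lower by −1.11 (SE 0.21, adjusted p = 0.000444). Of the stretches of 100 bases in its transcripts, 17.0% also occur in Kifc5b, a near copy of the gene examined after its values were seen, which was itself lower (−1.26, adjusted p = 0.000488).

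Kif11, the plus-end motor that separates the spindle poles and the best known kinesin drug target, was listed at 0 counts in all 6 tumors (ENSMUSG00000012443.3, chr19:37376403-37421859). Ide, its nearest protein-coding neighbor toward lower coordinates, was listed at 0 in all tumors as well, as was the gene beyond Ide. Exoc6, the nearest on the other side, had counts of 362, 202 and 238 with vehicle and 12, 18 and 37 with RGS. These neighbors were examined after the values were seen, and no change of Kif11 can be given.

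**Figure D2:**
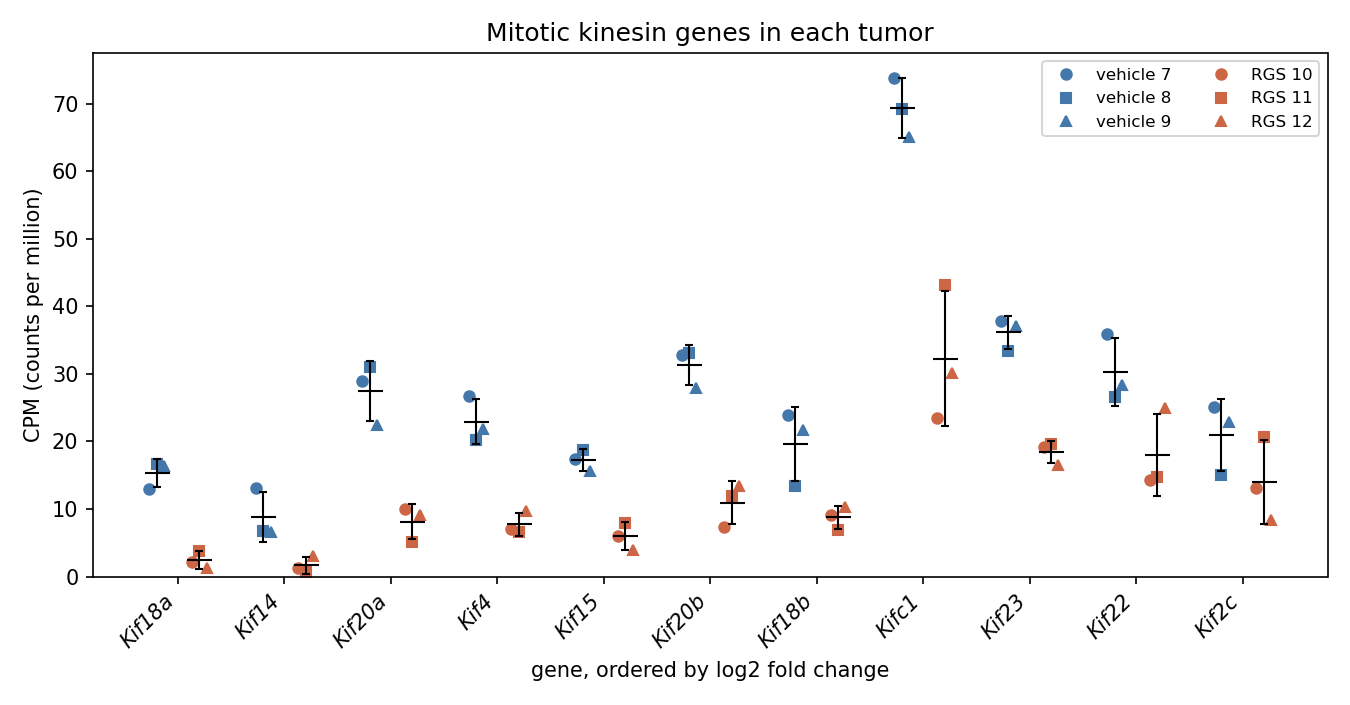
CPM of each of the 11 mitotic kinesins in the 3 vehicle and 3 RGS tumors (points), with the mean and SD of each group. The groups are apart in every gene but Kif2c, where RGS tumor 11 at 20.6 CPM lies above vehicle tumor 8 at 15.0 CPM.

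The last set of mitotic kinesins acts at the central spindle and in cytokinesis. Kif23 (ENSMUSG00000032254.10, chr9:61915905-61946774), the motor subunit of centralspindlin, which bundles the central spindle and marks the site of the cleavage furrow, had 37.9, 33.4 and 37.1 CPM in the vehicle tumors and 19.1, 19.6 and 16.6 CPM in the RGS tumors. Both groups were tight and far apart, in a gene with TTTGAA next to its start. Kif23 fell from 36.1 ± 2.41 to 18.4 ± 1.62 CPM (SD, n = 3), a log2 fold change of −0.97 (SE 0.20, edgeR adjusted p = 0.00119). Kif20a (ENSMUSG00000003779.15), which carries the chromosomal passenger complex to the central spindle, had 28.9, 31.1 and 22.5 CPM in the vehicle tumors and 10.04, 5.12 and 9.18 CPM in the RGS tumors. No RGS tumor came near a vehicle tumor, and Kif20a was lower by −1.75 (SE 0.28, adjusted p = 9.69e-05). Of the 4338 exon bases of Kif20a in the mouse annotation, 29.3% are shared with Cdc23 on the opposite strand. The count table gives Kif20a a length of 3796 bases, so this share need not hold for the gene as it was counted. Cdc23, examined after its values were seen, was also lower (−1.20), and how reads from the shared bases were assigned was not tested.

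Kif20b (ENSMUSG00000024795.11, chr19:34922361-34975745), which acts in the final separation of the daughter cells, had 32.9, 33.1 and 27.9 CPM in the vehicle tumors and 7.39, 11.98 and 13.5 CPM in the RGS tumors. Its groups were apart, with RGS tumor 10 lowest, and the log2 fold change was −1.52 (SE 0.25, adjusted p = 0.000153). Kif14 (ENSMUSG00000041498.13, chr1:136466343-136531511), which recruits citron kinase to the midbody, had 13.1, 6.81 and 6.54 CPM in the vehicle tumors and 1.23, 0.678 and 3.06 CPM in the RGS tumors. Vehicle tumor 7 held about the sum of the other vehicle tumors, and RGS tumor 12 was the highest of its group without reaching them. Kif14 was lower by −2.40 (SE 0.54, adjusted p = 0.00211), a value that moved to −3.18 without RGS tumor 12 and to −1.998 without vehicle tumor 7. The call for Kif14 rests on few counts, since RGS tumors 10, 11 and 12 had 26, 9 and 50.

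Summed over the 11 genes, the mitotic kinesins made up 329, 284 and 286 CPM in the vehicle tumors and 113, 141 and 131 CPM in the RGS tumors. The sum thus went from 299 ± 25.3 to 128 ± 14.3 CPM (SD, n = 3), a ratio of 0.429 between the means. The share of all kinesin CPM that came from mitotic kinesins was 20.5%, 22.6% and 24.1% in the vehicle tumors and 6.70%, 9.40% and 8.65% in the RGS tumors. The share of transport kinesins was 65.1 ± 2.67% in vehicle tumors and 79.6 ± 0.788% in RGS tumors, while the share of the other kinesins was 12.5 ± 0.890% and 12.2 ± 1.55%. The ratio of mitotic to transport kinesin CPM was 0.345 ± 0.0414 in vehicle tumors and 0.104 ± 0.0177 in RGS tumors, without overlap. An exact permutation test of 3 tumors against 3 cannot give a p below 0.1, so sums, shares and ratios are given without a test.

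**Figure D3:**
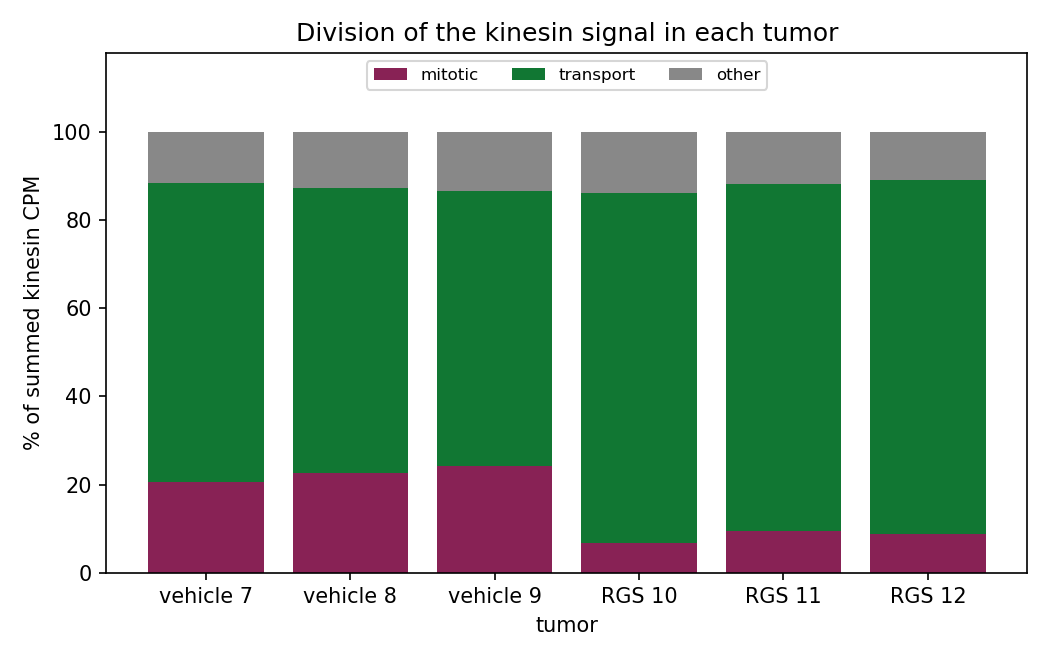
Share (%) of the summed CPM of all kinesins that came from mitotic, transport and other kinesins in each of the 6 tumors. Mitotic kinesins make up 20.5% to 24.1% in vehicle tumors and 6.70% to 9.40% in RGS tumors.

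Most of the listed proteins that kinesins work with in division were lower too. Of 11 listed partners, 10 were found under their listed symbol and tested, 8 of these were lower (16.5% of all tested genes were) and 2 were not called, with a median log2 fold change of −1.19. Among the lower ones is Cenpe (−1.55), named after its values were seen, which is itself a kinesin motor of the kinetochore that the rule on symbols does not take in. The remaining partner, Kifbp, stands in the table under its older symbol Kif1bp and was not part of these counts. Kif1bp had 63.0, 58.4 and 67.9 CPM in the vehicle tumors and 78.7, 83.1 and 80.2 CPM in the RGS tumors. Its RGS tumors all lay above its vehicle tumors, and it was not called (0.35, adjusted p = 0.0989). Racgap1, the other subunit of centralspindlin beside Kif23, fell from 111 ± 1.61 to 31.2 ± 1.70 CPM (SD, n = 3), by −1.83 (SE 0.16, edgeR adjusted p = 1.30e-07). Tpx2, which binds Kif15 and loads it on spindle microtubules, fell from 129 ± 20.5 to 58.5 ± 7.14 CPM, by −1.14 (adjusted p = 5.37e-05). The other partners without a call, named after their values were seen, were the mitotic kinase Plk1 (−0.34, adjusted p = 0.370) and Incenp (−0.03, adjusted p = 0.923), a subunit of the chromosomal passenger complex that Kif20a carries.

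Markers of proliferating cells were lower along with the mitotic kinesins, and their part in the kinesin values was not tested. Of 17 listed markers, all tested, 15 were lower (16.5% of all tested genes were) and 2 were not called, with a median of −1.22, and their summed level was 1452, 1344 and 1337 CPM in the vehicle tumors and 651.9, 648 and 697 CPM in the RGS tumors. Bub1, a kinase of the spindle checkpoint, fell from 50.1 ± 4.23 to 7.14 ± 0.703 CPM (SD, n = 3; log2 fold change −2.81, edgeR adjusted p = 1.82e-08). Pcna, the sliding clamp of DNA replication, was not called, at 187 ± 40.9 and 143 ± 19.0 CPM (−0.39, adjusted p = 0.0971). Divided by the summed proliferation markers, the summed mitotic kinesins were 0.226, 0.211 and 0.214 in the vehicle tumors and 0.173, 0.218 and 0.188 in the RGS tumors. These ratios overlapped, with RGS tumor 11 between vehicle tumors 7 and 9.

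Among the transport kinesins, the heterotrimeric kinesin-2 motors come first. Kif3a pairs with Kif3b to move cargo in cilia and with Kif3c to move cargo in the cytoplasm of neurons. All of these motor genes were higher in RGS tumors. Kifap3, the accessory subunit of these motors, was named after its values were seen. It had 61.4 ± 6.81 CPM in vehicle tumors and 60.7 ± 8.18 CPM in RGS tumors (SD, n = 3). Kifap3 was not called (−0.02, edgeR adjusted p = 0.954). Kif3c (ENSMUSG00000020668.10, chr12:3365132-3406494) had 107, 79.4 and 79.8 CPM in the vehicle tumors and 254, 199 and 190.5 CPM in the RGS tumors. The lowest RGS tumor was well above the highest vehicle tumor, and Kif3c rose from 88.6 ± 15.6 to 215 ± 34.6 CPM (SD, n = 3), a log2 fold change of 1.28 (SE 0.17, edgeR adjusted p = 1.71e-05). Of its exon bases, 35.3% are shared with the antisense transcript 1110002L01Rik, examined after its values were seen, which was not called (−0.64). Kif3a (ENSMUSG00000018395.19, chr11:53567379-53601967) had 80.1, 66.4 and 58.8 CPM in the vehicle tumors and 88.6, 109 and 119 CPM in the RGS tumors. The groups were apart by a small gap, between vehicle tumor 7 and RGS tumor 10, and Kif3a was higher by 0.62 (SE 0.17, adjusted p = 0.0102).

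Kif3b (ENSMUSG00000027475.9, chr2:153291413-153333390) had 33.1, 26.5 and 19.4 CPM in the vehicle tumors and 45.7, 36.2 and 46.9 CPM in the RGS tumors. Here RGS tumor 11 was the low member of its group, just above vehicle tumor 7, and Kif3b was higher by 0.70 (SE 0.22, adjusted p = 0.0182). With library size in place of TMM factors, the median of all tested genes moved from −0.05 to −0.19, and the calls over all genes went from 2533 lower and 2503 higher to 3152 lower and 1870 higher. On that scale Kif3a (adjusted p = 0.0513) and Kif3b (0.0671) were not called, while 10 mitotic kinesins were still lower. Kif3a also lost its call without RGS tumor 12 (0.0663, within a range of 0.000300 to 0.0663), and Kif3b without vehicle tumor 9 (0.0946), RGS tumor 10 (0.0644) or RGS tumor 12 (0.0720), within a range of 0.00234 to 0.0946. Per length, Kif3a was 4.17 ± 0.512 times Kif3b in vehicle tumors and 3.92 ± 0.842 times in RGS tumors, with overlap. Kif3c was 2.62 ± 0.445 times Kif3b per length in vehicle tumors and 3.84 ± 0.647 times in RGS tumors, also with overlap.

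Kif1c (ENSMUSG00000020821.17, chr11:70700548-70731964), which carries vesicles and dense-core granules toward microtubule plus ends, had 233, 167 and 149 CPM in the vehicle tumors and 399.7, 394 and 385 CPM in the RGS tumors. All RGS tumors were far above the vehicle tumors and almost equal to each other. Kif1c rose from 183 ± 44.2 to 393 ± 7.16 CPM (SD, n = 3), a log2 fold change of 1.10 (SE 0.17, edgeR adjusted p = 6.64e-05), while its coefficient of variation was 24.2% in vehicle tumors and 1.82% in RGS tumors. Kif5b (ENSMUSG00000006740.13), the widely expressed heavy chain of conventional kinesin, moved the other way. It had 263, 226.5 and 197 CPM in the vehicle tumors and 193, 147 and 167 CPM in the RGS tumors. The gap between vehicle tumor 9 and RGS tumor 10 was narrow, and Kif5b was lower by −0.44 (SE 0.16, adjusted p = 0.0454). This call was lost with RLE factors, another scaling in edgeR (adjusted p = 0.0503) and without vehicle tumor 7 (0.0857), vehicle tumor 8 (0.143), RGS tumor 11 (0.192) or RGS tumor 12 (0.100), within a range of 0.00515 to 0.192.

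The ratio of Kif1c to Kif5b, each per length, was 0.899, 0.748 and 0.768 in the vehicle tumors and 2.11, 2.72 and 2.35 in the RGS tumors. Kif5b was thus above Kif1c in every vehicle tumor and below it in every RGS tumor. In CPM per kilobase of gene length, the order in vehicle tumors was Kif5b (31.0 ± 4.50), Kif1c (25.1 ± 6.08), Kif2a (23.2 ± 2.13), Kifc1 (20.4 ± 1.29), Kif3a (19.1 ± 3.01) and Kif3c (11.96 ± 2.10). Each of the first 5 lay within the summed SD of its neighbor in this order, and Kif3c lay below them. In RGS tumors the order in CPM per kilobase was Kif1c (54.0 ± 0.984), Kif3a (29.4 ± 4.32), Kif3c (29.0 ± 4.67), Kif2a (27.6 ± 5.74) and Kif5b (22.8 ± 3.08). Kif1c stood apart there, the next 4 lay within the summed SD of their neighbors, and Kifc1 had moved from place 4 to place 8 (9.46 CPM per kilobase).

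**Figure D4:**
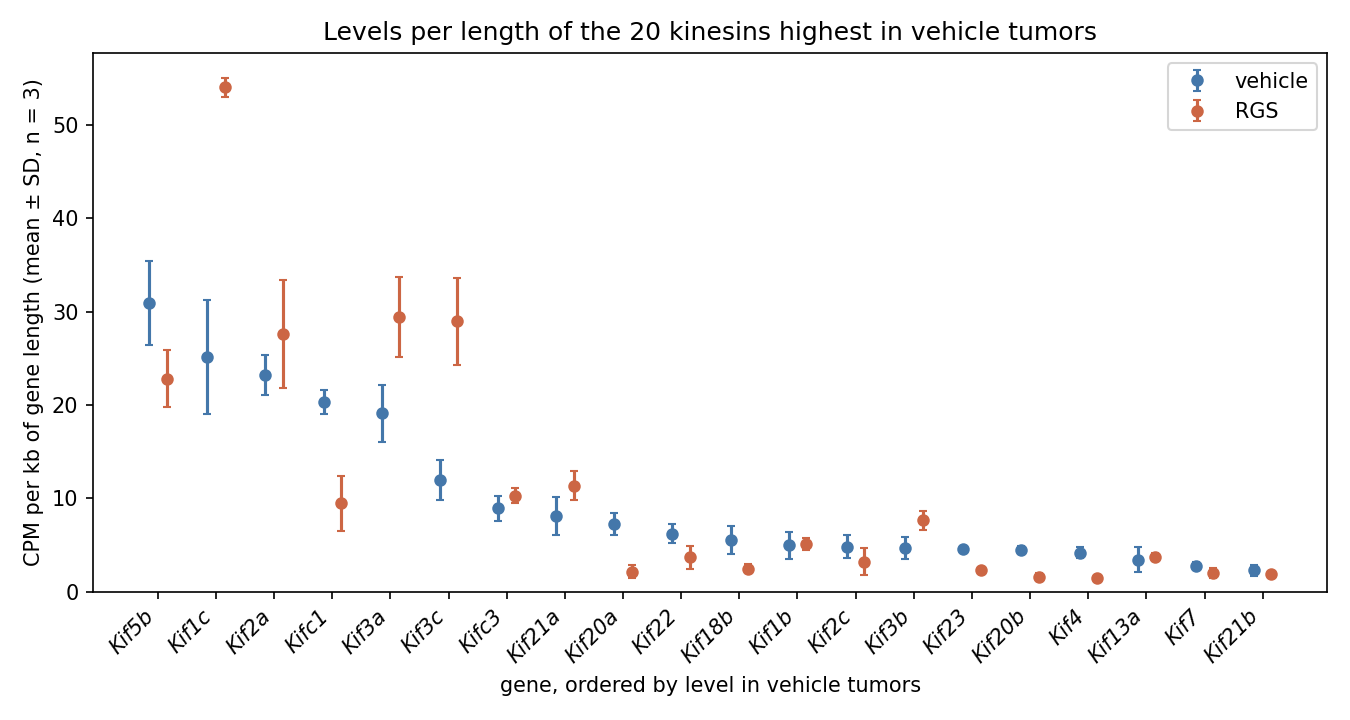
CPM per kilobase of gene length (mean and SD of 3 tumors) in vehicle and RGS tumors for the 20 kinesins with the highest level in vehicle tumors. Kif5b leads in vehicle tumors at 31.0 and Kif1c in RGS tumors at 54.0.

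Kif1a (ENSMUSG00000014602.15, chr1:93015464-93101951), the motor of synaptic vesicle precursors in axons, had counts of 22, 1 and 0 with vehicle and 129, 2 and 79 with RGS, which is 0.628, 0.0356 and 0 CPM against 6.11, 0.151 and 4.83 CPM. RGS tumor 11 lay within the vehicle range, so the groups overlapped. Its log2 fold change was 3.97 (SE 1.26, adjusted p = 0.0207). With vehicle counts this low, Kif1a was tested only because its median count was higher in the RGS group. Kif1a was not called by DESeq2 (adjusted p = 0.0896) nor without RGS tumor 10 (0.122) or RGS tumor 12 (0.0599), within a range of 0.000390 to 0.122, and its log2 fold change was 7.21 without vehicle tumor 7.

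Some markers of neurons were higher along with Kif1a and Kif3c, and their part in these values was not tested. Of 7 listed neuron markers, 6 were tested and 4 were higher (Nefl, Nefm, Syn1 and Tubb3), beside 16.3% of all tested genes. The other 2 were not called, with negative log2 fold changes (Map2, −0.26, and Elavl4, −1.44). Elavl4 passed the count filter only through the vehicle group. The summed level of the list was 98.5, 83.9 and 83.1 CPM in the vehicle tumors and 829, 736 and 908 CPM in the RGS tumors. Nefl was the most abundant, and 32.8% of its exon bases are shared with Nefm on the opposite strand. Rbfox3, the defining marker of mature neurons, had 4 counts in vehicle tumor 7 and 0 in every other tumor. Of 6 ciliated cell markers, 2 were tested and neither was called, their summed level was 3.97, 1.67 and 2.79 CPM in the vehicle tumors and 8.76, 4.82 and 4.83 CPM in the RGS tumors, and Dnah5, Dnah9, Rsph1 and Tekt1 were at 0 in all tumors.

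The remaining 11 transport kinesins were not called, with log2 fold changes from −0.42 (Kif16b) to 1.04 (Kif5a). Both ends rest on single tumors, since Kif16b was at −0.06 without vehicle tumor 7, and Kif5a was at −0.19 without RGS tumor 12 and at 3.39 without vehicle tumor 9. Kif17, a homodimeric motor of cilia and dendrites, was higher in all RGS tumors than in any vehicle tumor but not called (0.94, adjusted p = 0.244). Kif21a was not called (0.48, adjusted p = 0.0664) but was called with limma voom, without a count filter and without vehicle tumor 7, where it was 0.68 (adjusted p = 0.00460), within a range of 0.00460 to 0.268. Kif5c, a heavy chain enriched in neurons, was called without RGS tumor 11 (1.25, adjusted p = 0.0445, within a range of 0.0445 to 0.514) and not with all tumors (0.87, adjusted p = 0.217).

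Among the other kinesins, Kif24 (ENSMUSG00000028438.16, chr4:41390745-41464887), a centriolar motor that restrains the growth of cilia, had counts of 132, 72 and 62 with vehicle and 10, 0 and 16 with RGS, which is 3.77, 2.57 and 2.67 CPM against 0.473, 0 and 0.979 CPM. The groups were apart, with the 0 in RGS tumor 11, where 3 counts would be 0.226 CPM. Kif24 was lower by −2.60 (SE 0.98, adjusted p = 0.0498), at the edge of the threshold, and 7 of 15 alternatives, among them leaving out vehicle tumor 7 (adjusted p = 0.153), vehicle tumor 8 (0.109), vehicle tumor 9 (0.0679), RGS tumor 10 (0.101) or RGS tumor 11 (0.0641), ended its call, within a range of 0.0103 to 0.153. Without RGS tumor 12 its log2 fold change was −3.53. Kif2a (ENSMUSG00000021693.20, chr13:106958996-107022126), a relative of Kif2c that takes microtubules apart at spindle poles and in neurons, had 164, 143 and 138 CPM in the vehicle tumors and 219, 159 and 152 CPM in the RGS tumors. RGS tumor 10 was above all others and the groups overlapped, with a log2 fold change of 0.25 (adjusted p = 0.271), which was 0.07 without RGS tumor 10. Of the exon bases of Kif2a, 19.2% are shared with Dimt1 on the opposite strand, which was lower (−1.35) and was examined after its values were seen.

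The remaining 5 tested genes of the other kinesins, Kif7, Kif9, Kif19a, Kif26b and Kif27, were not called. Kif19a, a microtubule-shortening motor of ciliary tips, had counts of 20, 0 and 0 with vehicle and 25, 45 and 4 with RGS, and passed the count filter only through the RGS group. It was called with limma voom and also without vehicle tumor 7, which leaves the vehicle group at 0 counts. Beside Kif11, the untested genes were Kif2b, at 0 in all tumors, and Kif6, Kif12, Kif26a and Kif28. Kif6 had 39 counts in RGS tumor 12 and 0 elsewhere, and Kif28 had 6 counts in RGS tumor 10 and 0 elsewhere. Kif12 had counts of 14, 1 and 0 with vehicle and 1, 1 and 0 with RGS, and Kif26a had 25, 0 and 0 against 3, 0 and 0.

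**Figure D5:**
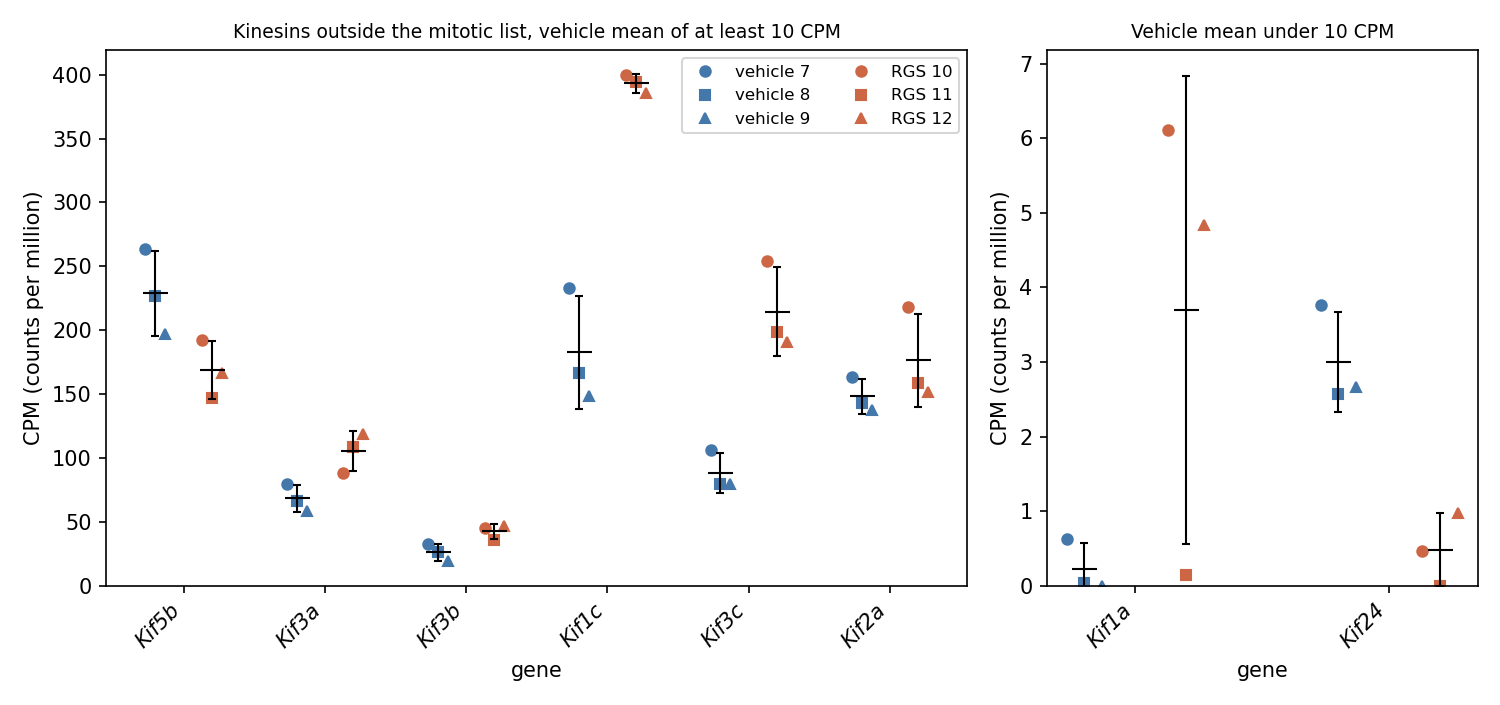
CPM of Kif5b, Kif3a, Kif3b, Kif1c, Kif3c, Kif2a, Kif1a and Kif24 in the 3 vehicle and 3 RGS tumors (points), with the mean and SD of each group. Kif1c is between 149 and 233 CPM in vehicle tumors and between 385 and 399.7 CPM in RGS tumors, and Kif1a is near 0 in RGS tumor 11.

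Proteins that couple transport kinesins to cargo, and the motor that runs the other way on microtubules, were read from lists as well. Of 14 kinesin light chains and cargo adaptors, all tested, 4 were higher (16.3% of all tested genes were) and 10 were not called, with a median log2 fold change of 0.34. Mapk8ip1, a scaffold that links kinesin light chains to cargo, rose from 8.42 ± 1.63 to 18.2 ± 4.69 CPM (SD, n = 3), by 1.11 (edgeR adjusted p = 0.00613). Klc1, the most abundant of the list, had 371 ± 40.5 and 486 ± 40.8 CPM and was not called (0.39, adjusted p = 0.0559). Of 18 genes of dynein and its cofactor dynactin, 17 were tested, 1 was lower and 3 were higher, with a median of 0.17, beside the 16.5% lower and 16.3% higher among all tested genes. Dync1h1, the dynein heavy chain, rose from 444 ± 147 to 1099 ± 86.5 CPM (1.31, adjusted p = 3.88e-05), and Dynlt3, a dynein light chain, fell from 194 ± 43.7 to 74.3 ± 10.2 CPM (−1.38, adjusted p = 1.36e-05).

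The labelled tissue and the other cells of the tumor were read from marker lists, and their part in the kinesin values was not tested. Of 7 melanocyte lineage markers, 2 were tested and neither was called. Mitf was the most abundant of them, Mlana, Tyr and Dct were at 0 in all tumors, and the summed level was 7.68, 5.17 and 4.94 CPM in the vehicle tumors and 10.5, 9.12 and 4.53 CPM in the RGS tumors. Of 4 leukocyte markers, 2 were tested and both were higher, beside 16.3% of all tested genes. The leukocyte sums were 248, 188 and 187 CPM in the vehicle tumors and 1002, 1028 and 919.9 CPM in the RGS tumors. Laptm5 was the most abundant and Ptprc was at 0 in all tumors. Of 5 macrophage markers only Cd68 was tested, and it was not called. The macrophage sums were 64.7, 64.0 and 58.9 CPM against 65.4, 69.2 and 88.4 CPM, with Adgre1 at 0 in all tumors. Of 5 T cell markers, Trac alone was tested, with 0 counts in every vehicle tumor and 30, 16 and 10 counts in the RGS tumors. It passed the count filter only through the RGS group, so its call gives no direction for the list, while Cd3e, Cd3d and Cd8a were at 0 in all tumors. None of the 3 B cell markers was tested. A marker given at 0 is listed at 0 in the count table, as Kif11 is. How these zeros arose could not be settled from the files, so they do not show that a cell type was absent.

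Of 6 fibroblast markers, 5 were tested, 3 were lower and 1 was higher, beside 16.5% lower and 16.3% higher among all tested genes. The fibroblast sums were 572, 421 and 375 CPM in the vehicle tumors and 288, 277 and 305 CPM in the RGS tumors. Col1a2 was the most abundant and Lum was at 0 in all tumors. Of 4 endothelial markers, 3 were tested and 1 was higher, Cdh5, beside 16.3% of all tested genes. The endothelial sums were 1.20, 0.998 and 0.946 CPM against 6.82, 3.24 and 11.2 CPM. Of 5 Schwann cell markers, 4 were tested and 2 were lower, Prx and Mbp, beside 16.5% of all tested genes. Mbp had 0 counts in every RGS tumor and passed the count filter only through the vehicle group. The Schwann cell sums were 22.5, 19.1 and 20.8 CPM against 11.6, 6.33 and 15.8 CPM. The 1 tested keratinocyte marker of 4 and the 2 tested skeletal muscle markers of 5 were not called.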

How the data were processed

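The submitters' notes give trimming with cutadapt 1.18, quality reports from FastQC 0.11.7, alignment to mm10 with STAR 2.7.1a and counting with featureCounts 1.6.4. The notes do not say how strand or reads with several matches were treated. Raw counts per gene were fitted with edgeR 4.0.16 in R 4.3.3 (glmQLFit and glmQLFTest on the group alone, TMM factors). CPM use the counts in tested genes times the TMM factor as library size. The SE of a log2 fold change was taken from its size over the root of the F statistic. No paired analysis was possible because the groups share no replicate numbers.

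Kinesins, their groups and the lists of partners and markers were chosen with earlier results of these data known. Values in every tumor are given for the mitotic kinesins, for every other kinesin that was called and for the 4 kinesins outside the mitotic list with the highest CPM per kilobase in vehicle tumors (Kif5b, Kif1c, Kif2a and Kif3a); of each partner list and of the proliferation markers, the called gene with the largest change and the most abundant gene are named. Exon overlaps and shared stretches come from the GENCODE M21 annotation and its transcripts. That annotation places 39 of the 41 kinesins at the same position as the count table. Summing Kifc1 with Kifc5b and thinning the counts to the smallest library were added as alternatives after the data were seen.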

Additional observations from a re-analysis of the deposited data

How the results depend on the processing

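The counts over kinesins, mitotic kinesins and all genes, the medians of mitotic and transport kinesins, and the log2 fold change of each tested kinesin were recomputed with DESeq2, RLE factors, library size only, robust dispersions, limma voom with quality weights, no filter, a filter of at least 1 CPM in 3 tumors, a minimum absolute log2 fold change of 1, Kifc1 and Kifc5b summed, thinned counts, and without each tumor in turn. Among the mitotic kinesins, 9 to 10 were lower in all of these but the minimum fold change, which left 8. No called kinesin changed direction. The minimum fold change bears on counts alone, and the partner and marker lists were not recomputed. The calls of Kif4, Kif14, Kif15, Kif18a, Kif18b, Kif20a, Kif20b, Kif23, Kifc1, Kif1c and Kif3c held in all 15 alternatives other than the minimum fold change, under which Kif23 was not called.

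The 5 higher kinesins became 3 with library size only, 3 with the minimum fold change and 7 with limma voom or with no filter. Leaving out a tumor gave 2 (without RGS tumor 12) to 7, and the cause was not tested. Kif6, with counts in RGS tumor 12 alone, was called higher with no filter and without RGS tumor 10 or RGS tumor 11. Leaving out a tumor, the mitotic median ranged from −1.59 (without vehicle tumor 9) to −1.30 (without RGS tumor 10) and was −1.32 without RGS tumor 12; the cause was not tested. With library size only it was −1.67. The transport median was 0.30 under the filter of at least 1 CPM in 3 tumors and 0.34 with library size only, and leaving out a tumor gave 0.32 (without vehicle tumor 9) to 0.55 (without vehicle tumor 7). With the minimum fold change, which asks for a larger change by its construction, 1450 of all genes were lower and 1168 were higher.

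Kif1a could not be fitted under the filter of at least 1 CPM in 3 tumors. The depth of RGS tumor 11 limits what can be seen in genes such as Kif14, Kif24 and Kif1a, where 3 counts are 0.226 CPM.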
